A study of Mus musculus with 15 samples.

Results

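Collagen chain genes were taken as the protein-coding genes whose symbol has the form Col, a number, the letter a and a number, such as Col1a1. The deposited table listed 43 of them among 20406 genes, and 34 of the 43 had enough counts to be tested. They were measured by RNA sequencing of whole plantaris muscle, a fast calf muscle, from adult male mice of the HSA-GFP strain, in which the human skeletal actin promoter drives the reverse tetracycline transactivator and a tetracycline response element drives histone 2B fused to green fluorescent protein. Every group carried these transgenes, and the promoter of the transactivator is that of muscle fibres.

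Each of the 5 groups held 3 libraries. The 6M_UT mice were untrained and 6 months old. The 6M_PoW mice ran with a growing load on the wheel (PoWeR, progressive weighted wheel running) for 8 weeks from 4 months of age and were taken at 6 months. The 9M_PoW+DT mice did the same training, had 12 weeks of detraining and were taken at 9 months, and 9M_UT were untrained mice of 9 months. The 6M_POW_LD libraries were titled trained replicates 4 to 6 with LD in their identifiers, and the sources used here do not say what LD means. In 9 libraries the treatment field went against the title. These were all 6 libraries of 9 months, whose conditions it exchanged, and the 3 LD libraries, which it called sedentary. Groups followed the titles, so every direction that uses these libraries rests on the titles. Library identifiers formed separate series at 6 months, at 9 months and for LD, so that neither age nor LD can be told apart from the identifier series, and the LD comparisons carry this limit as the age comparison does. The labels did not say whether replicates came from separate mice, so a p-value here measures the spread among these samples alone.

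Collagens are the main structural proteins of connective tissue. Their chains wind around one another into rope-like helices, which are then trimmed, cross-linked and laid down outside the cell. Fibrillar collagens (types I, III and V among them) make the cable-like fibrils of the muscle's connective tissue sheaths. Type IV collagen makes the sheet of the basement membrane around each muscle fibre and capillary, and type VI collagen makes the beaded filaments that join that sheet to the fibrils. In muscle most fibrillar collagen is made by fibroblasts and fibro-adipogenic progenitors, the connective tissue cells between the fibres. In whole muscle, fewer cells of a type and less RNA per cell cannot be told apart.

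Several collagen chains that work together also lie together in the genome. Col4a1 (chr8:11198423-11312826, minus strand) and Col4a2 (chr8:11312805-11449287, plus strand), the main chains of muscle type IV collagen, were listed head to head, and their gene bodies overlapped by 22 bases. Their promoter windows, from 250 bases before to 50 bases after each start site, shared 78 bases. Both are shown because these neighbours differed together between groups. The sequences are RefSeq's, on GRCm38.p6. Capitals mark the GC box (GGGCGG, or CCGCCC on the other strand) and the CCAAT box (CCAAT, or ATTGG on the other strand), which do not overlap. The Col4a1 window lies at chr8:11312777-11313076 on the minus strand and the Col4a2 window at chr8:11312555-11312854 on the plus strand.
Col4a1: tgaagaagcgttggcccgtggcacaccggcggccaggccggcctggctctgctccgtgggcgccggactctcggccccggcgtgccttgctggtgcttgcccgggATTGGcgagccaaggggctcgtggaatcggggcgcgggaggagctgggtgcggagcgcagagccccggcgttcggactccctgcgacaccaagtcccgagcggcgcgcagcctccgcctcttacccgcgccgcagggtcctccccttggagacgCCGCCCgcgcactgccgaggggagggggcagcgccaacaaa
Col4a2: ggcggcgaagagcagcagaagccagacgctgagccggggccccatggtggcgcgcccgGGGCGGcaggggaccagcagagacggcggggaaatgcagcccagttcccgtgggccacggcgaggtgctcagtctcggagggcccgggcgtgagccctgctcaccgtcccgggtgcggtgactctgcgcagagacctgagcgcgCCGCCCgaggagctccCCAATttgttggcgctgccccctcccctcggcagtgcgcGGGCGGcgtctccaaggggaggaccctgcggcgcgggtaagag
Col4a1 held 1 GC box and 1 CCAAT box, and Col4a2 held 3 GC boxes and 1 CCAAT box. The GC box of Col4a1 and the last of the 3 in Col4a2 are the same bases of the shared stretch, read on opposite strands. Their bases were 74.0% and 73.7% G or C. A GC box was found in 59.3% of all 12909 promoter windows of this length and in 21 of the 34 collagen windows that could be matched by symbol, or 61.8%. A CCAAT box was found in 38.1% of all windows and in 11 of the 34 collagen windows, or 32.4%. Such a match describes letters, not a bound site.

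Other neighbours were the type VI chains Col6a2 (chr10:76595762-76623630, minus strand) and Col6a1 (chr10:76708792-76726168, minus strand), which lay 85161 bases apart on the same strand. Their windows are shown for the same reason, at chr10:76623581-76623880 for Col6a2 and chr10:76725995-76726294 for Col6a1, both on the minus strand.
Col6a2: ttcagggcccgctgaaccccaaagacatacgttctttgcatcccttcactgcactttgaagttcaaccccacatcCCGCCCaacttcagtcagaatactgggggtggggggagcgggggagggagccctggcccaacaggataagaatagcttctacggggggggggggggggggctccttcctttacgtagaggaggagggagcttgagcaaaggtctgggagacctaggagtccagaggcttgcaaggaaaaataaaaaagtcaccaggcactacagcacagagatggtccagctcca
Col6a1: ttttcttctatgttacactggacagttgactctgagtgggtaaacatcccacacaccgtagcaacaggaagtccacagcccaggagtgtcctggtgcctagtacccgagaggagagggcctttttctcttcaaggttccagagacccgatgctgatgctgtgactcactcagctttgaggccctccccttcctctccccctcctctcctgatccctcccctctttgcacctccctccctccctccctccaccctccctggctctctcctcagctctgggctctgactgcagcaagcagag
Col6a2 held 1 GC box and no CCAAT box, and Col6a1 held neither. The RefSeq start site of Col6a1 lay 124 bases inside the gene start of the deposited table. The fibrillar genes Col3a1 and Col5a2 lay tail to tail on chromosome 1, 24614 bases apart. Col4a4 and Col4a3 lay head to head, 71 bases apart, as did Col4a6 and Col4a5, 1308 bases apart. The sources used here do not say whether counting used strand, so reads from the stretch shared by Col4a1 and Col4a2 cannot be assigned to one of them.

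Library totals ran from 18865048 to 27688842 counts, and the 43 collagen genes together took 0.0350% to 0.0728% of a library's counts. In 6M_UT this share was 0.0350% to 0.0442%, in 6M_PoW 0.0543% to 0.0728% and in LD 0.0590% to 0.0701%. In 9M_UT it was 0.0393% to 0.0545%, and in 9M_PoW+DT it was 0.0479% to 0.0609%. The share was thus higher in each trained and each LD library than in any 6M_UT library, while the 2 groups of 9 months overlapped. The summed level of 5 muscle fibre markers was 73258 to 111205 CPM (counts per 1000000 of the scaled library total), so fibre transcripts were abundant in every library. Single libraries stood apart: 6M_UT replicate 1 was the lowest of all 15 for 11 of the 34 tested genes, Col1a1, Col3a1, Col5a1, Col6a1, Col6a2, Col6a3 and Col15a1 among them, and LD replicate 5 was the highest for 11.

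The minimum for testing was a count of 10 in a library of median size, or about 0.454 CPM, in at least 3 libraries. Of the 34 tested genes, 28 were at or above it in all 15 libraries and 6 fell below it in some library (Col11a1, Col13a1, Col27a1, Col28a1, Col4a5 and Col8a2). The 9 untested genes were Col2a1, Col4a6, Col6a5, Col9a2, Col9a3, Col10a1, Col17a1, Col25a1 and Col26a1. The highest level of each in any library ran from 0.177 CPM for Col10a1 to 0.847 CPM for Col26a1, and none had more than 21 counts. Col2a1, Col9a2, Col9a3 and Col10a1, which are known as cartilage collagens, had at most 6, 8, 11 and 5 counts.

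Scaled by the total length of each gene's annotated exons, type IV collagen led. That total joins the exons of all annotated transcripts, for example 7.46 kilobases for Col4a1, 9.82 for Col3a1 and 12.4 for Col1a2. Genes with many alternative exons thus get lower values, and the order and ratios below depend on the annotation. Before length scaling, median CPM was 80.9 for Col4a1, 64.6 for Col4a2, 64.3 for Col3a1, 54.2 for Col1a2, 33.8 for Col1a1 and 30.0 for Col6a1. Col4a1 had a median of 10.8 CPM per kilobase over the 15 libraries (range 7.89 to 14.2) and Col4a2 one of 9.75. Next came Col6a1 at 6.86, Col3a1 at 6.55, Col1a1 at 5.14 and Col1a2 at 4.36 CPM per kilobase. The remaining tested genes ran from 3.38 for Col6a2 down to 0.0472 for Col11a1. Per kilobase, the Col4a1 level was 0.935 to 1.25 times that of Col4a2 in the 15 libraries, and the Col1a1 level 0.838 to 1.33 times that of Col1a2. The ratio of Col5a2 to Col5a1 varied more, from 0.342 to 0.807. The abundant type IV chains also varied least between replicates. The pooled standard deviation (SD) of log2 CPM within groups was 0.10 for Col4a2 and 0.116 for Col4a1, against 0.207 for Col6a1, 0.374 for Col1a2 and 0.464 for Col1a1.

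**Figure D1:**
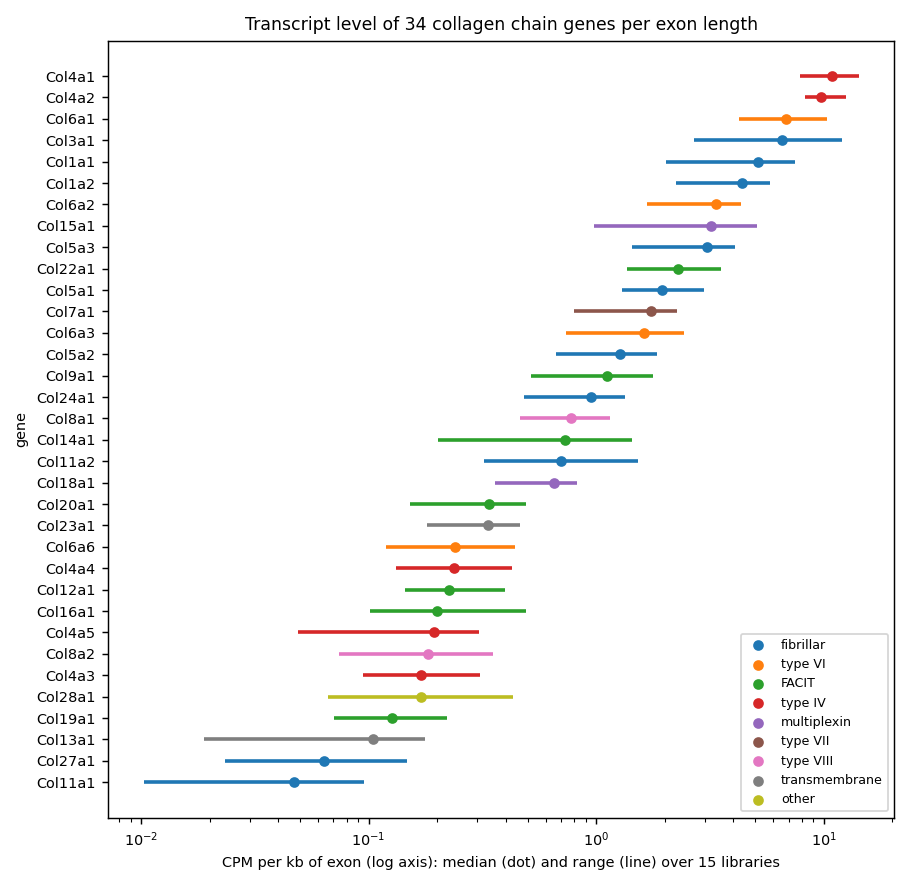
Level of each collagen chain gene in CPM per kilobase of exon on a log axis, for the 34 tested genes, with the dot the median over the 15 libraries, the line their range and the colour the class. Col4a1 and Col4a2 stand highest, with medians of 10.8 and 9.75 CPM per kilobase, and Col11a1 lowest at 0.0472.

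The first comparison set trained against untrained mice of 6 months. Collagen genes stood higher in the trained libraries in most cases, and the median of their log2 fold changes was 0.54 over the 34 tested genes, with 28 of 34 above 0, against a median of 0.00 over all 14919 genes tested. The reference holds 6M_UT replicate 1, the lowest of all 15 libraries for 11 of the 34 genes and the highest for 2. The LD, age and difference medians below use the same reference. No collagen gene passed an adjusted p of 0.05 in edgeR's quasi-likelihood test, and neither did any other gene (0% of all tested). At an unadjusted p under 0.05 there were 14 collagen genes, or 41.2%, where 9.75% of all genes passed. Of these 13 were higher, where 4.73% of all genes passed, and 1 was lower, where 5.02% passed. In 13 of the 34, or 38.2%, every trained library stood above every untrained one, against 7.96% of all genes, and in 1 every trained library stood below, against 8.26%. DESeq2 called 5 collagen genes higher (Col5a2, Col4a1, Col4a2, Col6a1 and Col3a1), where it called 0.416% of all genes higher, and limma-voom called 0. Col5a2 was the collagen gene with the smallest p, and its adjusted p was 0.0701 in edgeR's test. It passed without 6M_UT replicate 3 or without 9M_PoW+DT replicate 3, with adjusted p of 0.0431 and 0.0306.

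The LD libraries, titled as trained, gave 6 calls against the same untrained libraries. All 6 were higher in LD, at 17.6% of the 34 tested genes against 2.15% of all 15181 genes tested. Calls in either direction made up 4.99% of all genes. The median over the collagen genes was 0.53 on the log2 scale, with 28 of 34 above 0, against 0.01 over all genes. Groups did not overlap for 15 collagen genes that were higher in LD, or 44.1%, against 12.6% of all genes, and for 2 that were lower, against 12.7%. DESeq2 called 11 collagen genes higher and 1 lower, against 3.37% and 4.29% of all genes, and limma-voom called 8 higher, against 2.53%. In edgeR's test 17 collagen genes were at an unadjusted p under 0.05, against 20.0% of all genes. This comparison and the training comparison share the 6M_UT libraries, so their values are set side by side below. The calls fell from 6 to 3 without LD replicate 5 or LD replicate 6, and to 4 without 6M_UT replicate 1 or LD replicate 4.

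**Figure D2:**
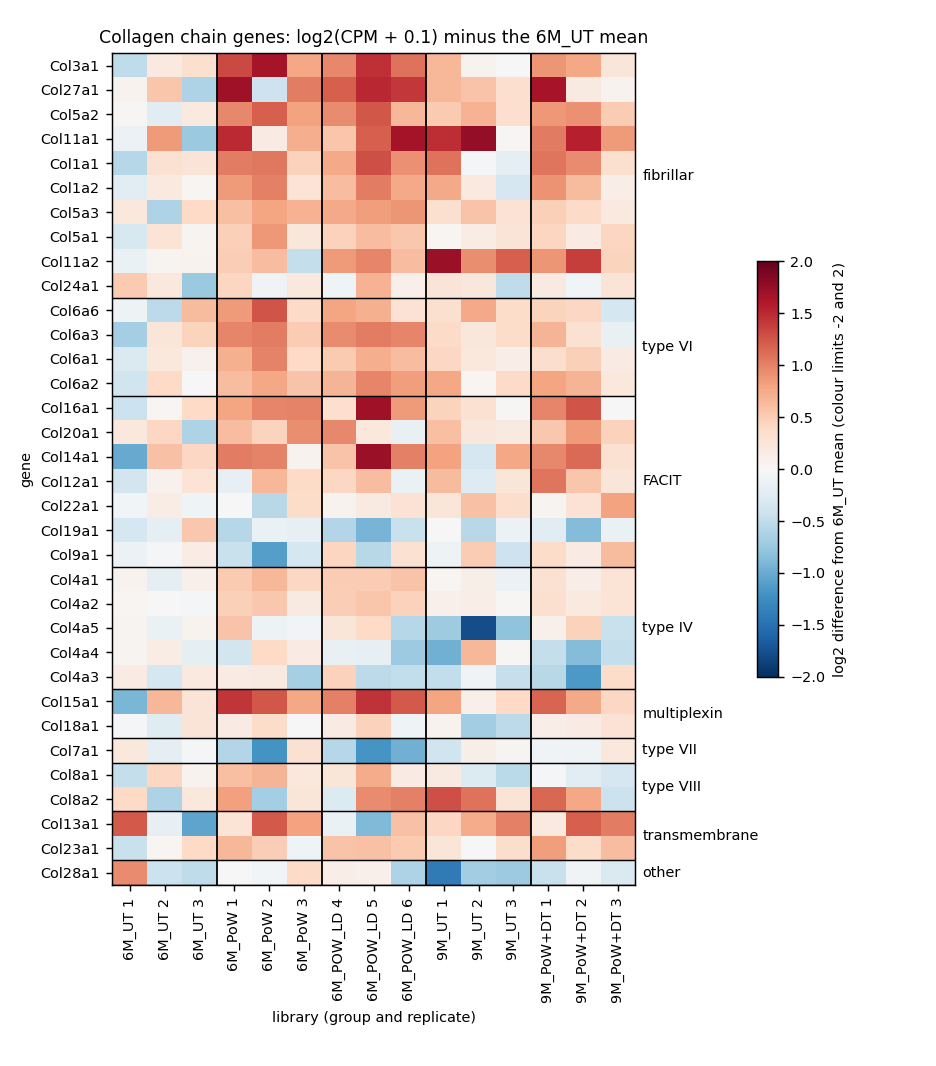
Level of each tested collagen gene in each library as log2(CPM + 0.1) less the mean over the 3 untrained libraries of 6 months, with genes grouped by class and libraries by group. Fibrillar and type VI genes are mostly above 0 in the trained and LD libraries, while Col7a1 is below 0 in 6M_PoW replicates 1 and 2 and in all LD libraries.

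The fibrillar class had 11 genes listed and 10 tested. All 10 stood above 0 after training, with a median of 0.78 on the log2 scale, and all 10 in LD, with a median of 0.90. The untrained libraries are shared, and 6M_UT replicate 1 was the lowest of all 15 for Col1a1, Col3a1 and Col5a1. Without it the medians were 0.66 and 0.82. In LD, 2 of the 10 were called higher, Col5a2 and Col5a3, against 2.15% of all genes.

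Type V collagen mixes into type I fibrils and limits their width, and its chains were among the clearest. Col5a2 (chr1:45374321-45503282, minus strand) stood at 7.57, 6.40 and 8.51 CPM in 6M_UT, 14.5, 17.2 and 13.1 in 6M_PoW and 14.5, 17.8 and 11.8 in LD. It stood at 10.8, 12.2 and 9.45 CPM in 9M_UT and 13.6, 14.1 and 10.6 in 9M_PoW+DT. Every library of the other 4 groups was above the highest 6M_UT library. Its log2 fold change was 1.001 ± 0.16 (standard error, SE) for training and 0.97 ± 0.17 for LD against 6M_UT, where edgeR's adjusted p was 0.00305. This LD call held in every alternative that was run.

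Col5a3 (chr9:20770050-20815067, minus strand), a less widespread type V chain, stood at 17.4, 9.77 and 19.9 CPM in 6M_UT, 22.9, 26.1 and 24.4 in 6M_PoW and 25.6, 26.9 and 27.8 in LD. The trained and LD libraries were all above the untrained ones of 6 months, of which replicate 2 was the lowest. In 9M_UT it stood at 18.7, 22.5 and 18.3 CPM and in 9M_PoW+DT at 20.9, 19.6 and 17.3. The LD log2 fold change was 0.77 ± 0.18 with an adjusted p of 0.0228 in edgeR's test, and the training one was 0.64 ± 0.20. The LD call was lost without any one of the 3 LD libraries (adjusted p 0.0528 to 0.0813), and also when only the groups compared were fitted (0.148).

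Col5a1, the most general type V chain, stood at 11.05, 16.6 and 14.2 CPM in 6M_UT, 19.1, 25.3 and 16.2 in 6M_PoW and 19.1, 21.1 and 20.04 in LD. It stood at 14.1, 15.2 and 16.5 CPM in 9M_UT and 18.5, 15.5 and 18.6 in 9M_PoW+DT. LD libraries were all above 6M_UT, while 6M_PoW replicate 3 was within the untrained range. The log2 fold change of 0.52 ± 0.16 in LD had an adjusted p of 0.0641 in edgeR's test. It passed without 6M_UT replicate 2, without 6M_PoW replicate 2 or without 6M_PoW replicate 3 (adjusted p 0.0315 to 0.0473).

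Type I and type III collagen are the bulk of the fibrils in muscle. Col1a1 stood at 13.3, 24.6 and 23.8 CPM in 6M_UT, 40.6, 41.5 and 27.3 in 6M_PoW and 33.8, 48.9 and 37.5 in LD. It stood at 42.2, 19.4 and 17.5 CPM in 9M_UT and 41.8, 38.1 and 24.8 in 9M_PoW+DT. Trained and LD libraries were all above 6M_UT, with 6M_PoW replicate 3 only just so, and the 9-month groups overlapped because 9M_UT replicate 1 was as high as any detrained library. On the log2 scale, the fold change was 0.82 ± 0.39 for training (unadjusted p 0.0656 in edgeR's test) and 0.96 ± 0.37 for LD (adjusted p 0.176). Without 6M_UT replicate 1 the training value was 0.59.

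Col1a2, the partner chain of Col1a1 in type I collagen, was high and low in much the same libraries. It stood at 30.1, 40.3 and 36.5 CPM in 6M_UT, 63.8, 71.1 and 42.7 in 6M_PoW and 54.2, 72.3 and 59.96 in LD, and at 60.1, 40.3 and 27.9 in 9M_UT and 66.1, 54.8 and 38.8 in 9M_PoW+DT. Again 6M_PoW replicate 3 was the lowest trained library and 9M_UT replicate 1 the highest of its group. The log2 fold changes were 0.73 ± 0.31 for training and 0.80 ± 0.29 for LD, with an adjusted p of 0.152 in edgeR's test for the latter.

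Col3a1, which encodes the chain of type III collagen, had the largest fold of the training comparison among collagens. It stood at 26.4, 42.9 and 47.1 CPM in 6M_UT, 94.2, 118 and 64.3 in 6M_PoW and 73.2, 104 and 80.2 in LD. It stood at 60.04, 39.5 and 37.99 CPM in 9M_UT and 69.6, 64.4 and 44.7 in 9M_PoW+DT. The lowest trained library was above the highest untrained one of 6 months. The log2 fold change was 1.25 ± 0.31 for training (adjusted p 0.257 in edgeR's test) and 1.14 ± 0.30 for LD (adjusted p 0.0540). The LD value passed without 6M_PoW replicate 3 (adjusted p 0.0414) and without 9M_UT replicate 1 (0.0477). Per kilobase, Col3a1 was 1.17 to 1.32 times Col1a1 in 6M_UT, 1.55 to 1.90 times in 6M_PoW and 1.42 to 1.45 times in LD. It was 0.952, 1.36 and 1.45 times Col1a1 in 9M_UT, a range that spans that of 6M_UT and overlaps that of LD, and 1.11 to 1.20 times in 9M_PoW+DT.

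Of the minor fibrillar genes, Col11a2 had the smallest p with age. Its product is a chain of type XI collagen, best known from cartilage. It stood at 2.84, 3.26 and 3.27 CPM in 6M_UT, 4.40, 4.81 and 2.20 in 6M_PoW and 5.70, 6.22 and 4.84 in LD. It stood at 10.5, 6.05 and 7.28 CPM in 9M_UT and 5.82, 8.31 and 4.30 in 9M_PoW+DT, so every 9M_UT library was above every 6M_UT library. The other 3 tested members were low, with Col24a1 between 3.67 and 10.2 CPM over the 15 libraries, Col27a1 between 0.306 and 1.92 and Col11a1 between 0.131 and 1.21.

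**Figure D3:**
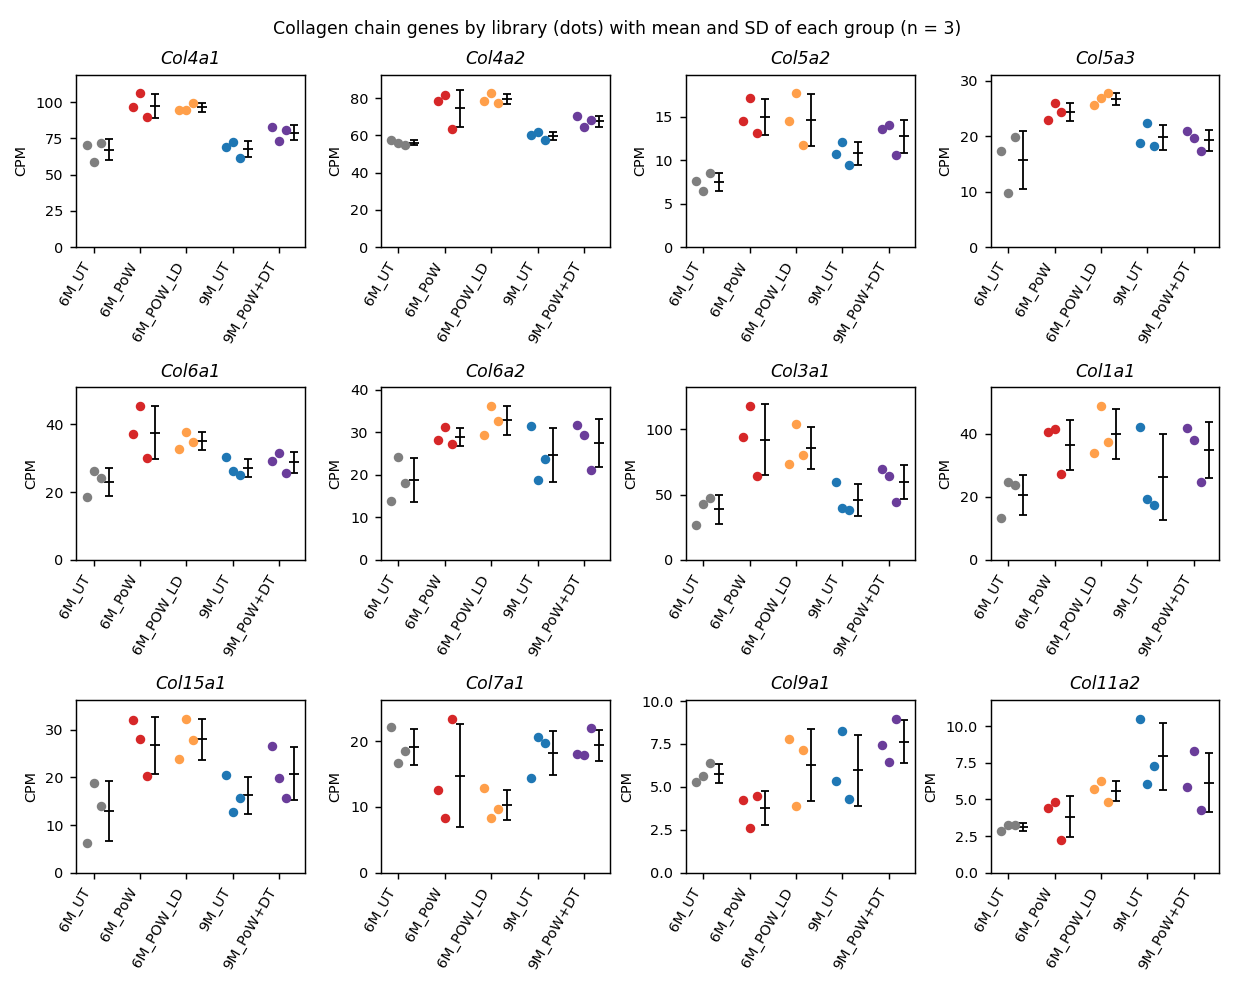
Level in CPM of selected collagen genes in each library, with 1 point per library, by group, and the group mean ± SD. Col5a2 is lower in the 3 libraries of 6M_UT than in every other library, and Col4a1 and Col4a2 show the least spread within groups.

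Type VI collagen had 5 genes listed and 4 tested. All 4 stood above 0 in both comparisons, with a median log2 fold change of 0.75 for training and 0.71 for LD, and 2 of 4 were called higher in LD, against 2.15% of all genes. Without 6M_UT replicate 1 the medians were 0.55 and 0.56. Col6a1 stood at 18.5, 26.3 and 24.1 CPM in 6M_UT, 37.2, 45.4 and 30.03 in 6M_PoW and 32.6, 37.7 and 34.8 in LD. It stood at 30.2, 26.2 and 25.000 CPM in 9M_UT and 29.1, 31.5 and 25.6 in 9M_PoW+DT. Each trained and LD library was above each untrained one of 6 months, while the 9-month groups overlapped. Its log2 fold change was 0.71 ± 0.15 for training (adjusted p 0.160 in edgeR's test) and 0.61 ± 0.15 for LD (adjusted p 0.0228). The LD call was lost without 6M_UT replicate 1 (adjusted p 0.0954), LD replicate 5 (0.107) or LD replicate 6 (0.0623).

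Col6a2, which assembles with Col6a1 and Col6a3 into the type VI monomer, stood at 13.9, 24.2 and 18.1 CPM in 6M_UT, 28.1, 31.3 and 27.2 in 6M_PoW and 29.4, 36.2 and 32.7 in LD. It stood at 31.4, 18.7 and 23.7 CPM in 9M_UT and 31.7, 29.4 and 21.1 in 9M_PoW+DT, where replicate 1 of each group was the highest. The LD log2 fold change of 0.80 ± 0.21 had an adjusted p of 0.0459 in edgeR's test, and the training one was 0.62 ± 0.23. The LD call was lost without any one of 10 of the 15 libraries, with adjusted p of 0.0608 to 0.162. It was also lost without a filter on low counts (0.0768) and with only the groups compared in the fit (0.0659). Among the libraries left out, it held without 9M_UT 1, without 9M_UT 2, without 9M_PoW+DT 1, without 9M_PoW+DT 3 and without 6M_UT 2.

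Col6a3 encodes the longest of the 3 chains. It stood at 8.86, 16.8 and 19.3 CPM in 6M_UT, 28.1, 29.1 and 20.3 in 6M_PoW and 27.6, 28.9 and 28.02 in LD, and at 18.6, 16.7 and 18.4 in 9M_UT and 22.9, 17.6 and 12.9 in 9M_PoW+DT. LD libraries lay close together and all above 6M_UT. On the log2 scale, the fold change was 0.79 ± 0.28 for training and 0.91 ± 0.25 for LD, with an adjusted p of 0.0565 in edgeR's test for LD. It passed without 6M_UT replicate 3, 9M_PoW+DT replicate 1 or 9M_PoW+DT replicate 3 (adjusted p 0.0372 to 0.0416). Col6a6, an alternative to Col6a3, was low at 1.10 to 4.03 CPM, with a training value of 0.84 ± 0.35.

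Type IV collagen split into its abundant and its rare chains. Col4a1 stood at 70.4, 58.9 and 71.9 CPM in 6M_UT, 96.4, 106 and 89.4 in 6M_PoW and 94.6, 94.6 and 99.6 in LD. It stood at 68.9, 72.3 and 61.4 CPM in 9M_UT and 82.8, 72.9 and 80.9 in 9M_PoW+DT. Trained, LD and detrained libraries were all above the untrained ones of their own age, and trained ones were above detrained ones. The log2 fold change was 0.52 ± 0.09 for LD (adjusted p 0.00294 in edgeR's test) and 0.54 ± 0.10 for training (adjusted p 0.112). In detrained against untrained mice it was 0.23 ± 0.10 with an unadjusted p of 0.0354 in edgeR's test.

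Col4a2 stood at 57.8, 55.8 and 54.9 CPM in 6M_UT, 78.6, 81.9 and 63.4 in 6M_PoW and 78.7, 82.8 and 77.3 in LD. It stood at 60.04, 61.9 and 57.4 CPM in 9M_UT and 70.3, 64.6 and 68.2 in 9M_PoW+DT. Trained, LD and detrained libraries were all above the untrained ones of their own age, but 6M_PoW replicate 3 was below all 3 detrained libraries and below LD. Its log2 fold change was 0.50 ± 0.09 for LD (adjusted p 0.00248 in edgeR's test), 0.41 ± 0.09 for training (adjusted p 0.160) and 0.18 ± 0.09 for detrained against untrained mice. The LD calls of Col4a1 and Col4a2 held in every alternative that was run. Their folds of 1.44 and 1.42 were smaller than the 1.96 of Col5a2, and their spread between replicates was also smaller.

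The other type IV chains make the basement membranes of kidney and other specialised tissues, and they did not share this pattern. Col4a3 ran from 0.938 to 3.08 CPM and Col4a4 from 1.40 to 4.51 CPM over the 15 libraries, and neither had groups of 6 months that did not overlap. Col4a5 stood at 1.42, 1.24 and 1.44 CPM in 6M_UT, 2.06, 1.26 and 1.30 in 6M_PoW and 1.63, 1.84 and 0.887 in LD. It stood at 0.793, 0.330 and 0.738 CPM in 9M_UT and 1.48, 1.92 and 0.971 in 9M_PoW+DT. The 9M_UT libraries were thus below every other library for this gene.

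The multiplexins Col15a1 and Col18a1 sit in the basement membrane zone, and fragments of both are known to inhibit vessel growth. Col15a1 stood at 6.19, 18.7 and 14.1 CPM in 6M_UT, 31.9, 28.1 and 20.2 in 6M_PoW and 23.8, 32.3 and 27.9 in LD. It stood at 20.4, 12.7 and 15.6 CPM in 9M_UT and 26.7, 19.9 and 15.8 in 9M_PoW+DT. Trained and LD libraries were all above 6M_UT, of which replicate 1 was far below the others. On the log2 scale, the fold change was 1.03 ± 0.38 for training and 0.70 without 6M_UT replicate 1, and it was 1.10 ± 0.35 for LD (adjusted p 0.106 in edgeR's test).

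Col18a1, the source of endostatin, showed less. It stood at 4.08, 3.50 and 4.98 CPM in 6M_UT, 4.64, 5.40 and 4.14 in 6M_PoW and 4.67, 5.77 and 3.91 in LD, groups that overlapped. It stood at 4.34, 2.53 and 2.85 CPM in 9M_UT and 4.56, 4.65 and 5.08 in 9M_PoW+DT, where each detrained library was above each untrained one.

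Col7a1, the anchoring fibril collagen best known from skin, went the other way. It stood at 22.1, 16.7 and 18.5 CPM in 6M_UT, 12.6, 8.24 and 23.4 in 6M_PoW and 12.8, 8.36 and 9.68 in LD. The 6M_PoW libraries were split, with replicates 1 and 2 below every 6M_UT library and replicate 3 above all of them. The LD log2 fold change was -0.89 ± 0.31, with an adjusted p of 0.126 in edgeR's test. DESeq2 called it lower, and edgeR did so without 6M_PoW replicate 2 or 3 (adjusted p 0.0401 and 0.0151) or with only the groups compared in the fit (0.0240). In the 9-month groups it ran from 14.3 to 22.05 CPM.

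FACIT collagens, whose helices are interrupted and which coat fibrils, had 9 genes listed and 7 tested. Their median log2 fold change was 0.33 for training, with 4 above 0 and 3 below, and 0.32 for LD, with 6 above 0 and 1 below. Col22a1, known at the junction of muscle and tendon, was the most abundant. It stood at 17.8, 20.5 and 17.3 CPM in 6M_UT, 18.6, 12.5 and 23.9 in 6M_PoW and 19.4, 20.98 and 22.7 in LD, and at 21.9, 27.8 and 23.7 in 9M_UT and 19.3, 22.6 and 32.5 in 9M_PoW+DT. The groups of 6 months overlapped, and each 9M_UT library was above each 6M_UT library.

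Col12a1 and Col14a1 coat type I fibrils in muscle and tendon. Col12a1 stood at 2.19, 3.04 and 3.45 CPM in 6M_UT, 2.53, 4.58 and 3.78 in 6M_PoW, 3.81, 4.42 and 2.58 in LD, 4.48, 2.37 and 3.40 in 9M_UT and 6.08, 4.22 and 3.37 in 9M_PoW+DT. Col14a1 stood at 1.42, 4.49 and 3.97 CPM in 6M_UT, 6.09, 5.99 and 3.10 in 6M_PoW, 4.45, 10.04 and 6.05 in LD, 5.23, 2.31 and 5.12 in 9M_UT and 5.86, 6.57 and 3.65 in 9M_PoW+DT. All pairs of groups compared overlapped for both genes. The LD log2 fold change of Col14a1 was 1.05 ± 0.45 with an adjusted p of 0.209 in edgeR's test.

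Col9a1, a type IX chain better known from cartilage, was a FACIT gene that stood lower after training. It stood at 5.29, 5.63 and 6.42 CPM in 6M_UT, 4.22, 2.62 and 4.50 in 6M_PoW and 7.80, 3.90 and 7.14 in LD. It stood at 5.37, 8.26 and 4.28 CPM in 9M_UT and 7.43, 6.48 and 8.97 in 9M_PoW+DT. Every 6M_PoW library was below every 6M_UT and every detrained library, while LD libraries overlapped all of these groups. The training log2 fold change was -0.62 ± 0.25 with an adjusted p of 0.443 in edgeR's test. The partner chains Col9a2 and Col9a3 were too low to test. Of the rest, Col16a1 (0.688 to 3.33 CPM) had a training value of 0.94 ± 0.38, and Col19a1 and Col20a1 ran from 0.487 to 1.53 and from 0.786 to 2.53 CPM.

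Transmembrane and network collagens were low. Col13a1, which clusters acetylcholine receptors at the neuromuscular junction, stood at 0.817, 0.248 and 0.0873 CPM in 6M_UT, 0.375, 0.813 and 0.585 in 6M_PoW, 0.257, 0.112 and 0.484 in LD, 0.420, 0.550 and 0.689 in 9M_UT and 0.347, 0.798 and 0.693 in 9M_PoW+DT. It had 2 to 22 counts per library, and its pooled SD of log2 CPM within groups was 0.884. Col25a1, which motor axons need to enter muscle, had 2 to 16 counts per library and was not tested. It stood at 0.258, 0.318 and 0.218 CPM in 6M_UT, 0.0937, 0.592 and 0.450 in 6M_PoW, 0.343, 0.112 and 0.121 in LD, 0.187, 0.385 and 0.246 in 9M_UT and 0.0869, 0.141 and 0.277 in 9M_PoW+DT. Col23a1 ran from 1.03 to 2.65 CPM, Col8a1 from 3.64 to 8.99, Col8a2 from 0.333 to 1.59 and Col28a1 from 0.327 to 2.11. None of these genes passed in a comparison by edgeR's adjusted p.

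**Figure D4:**
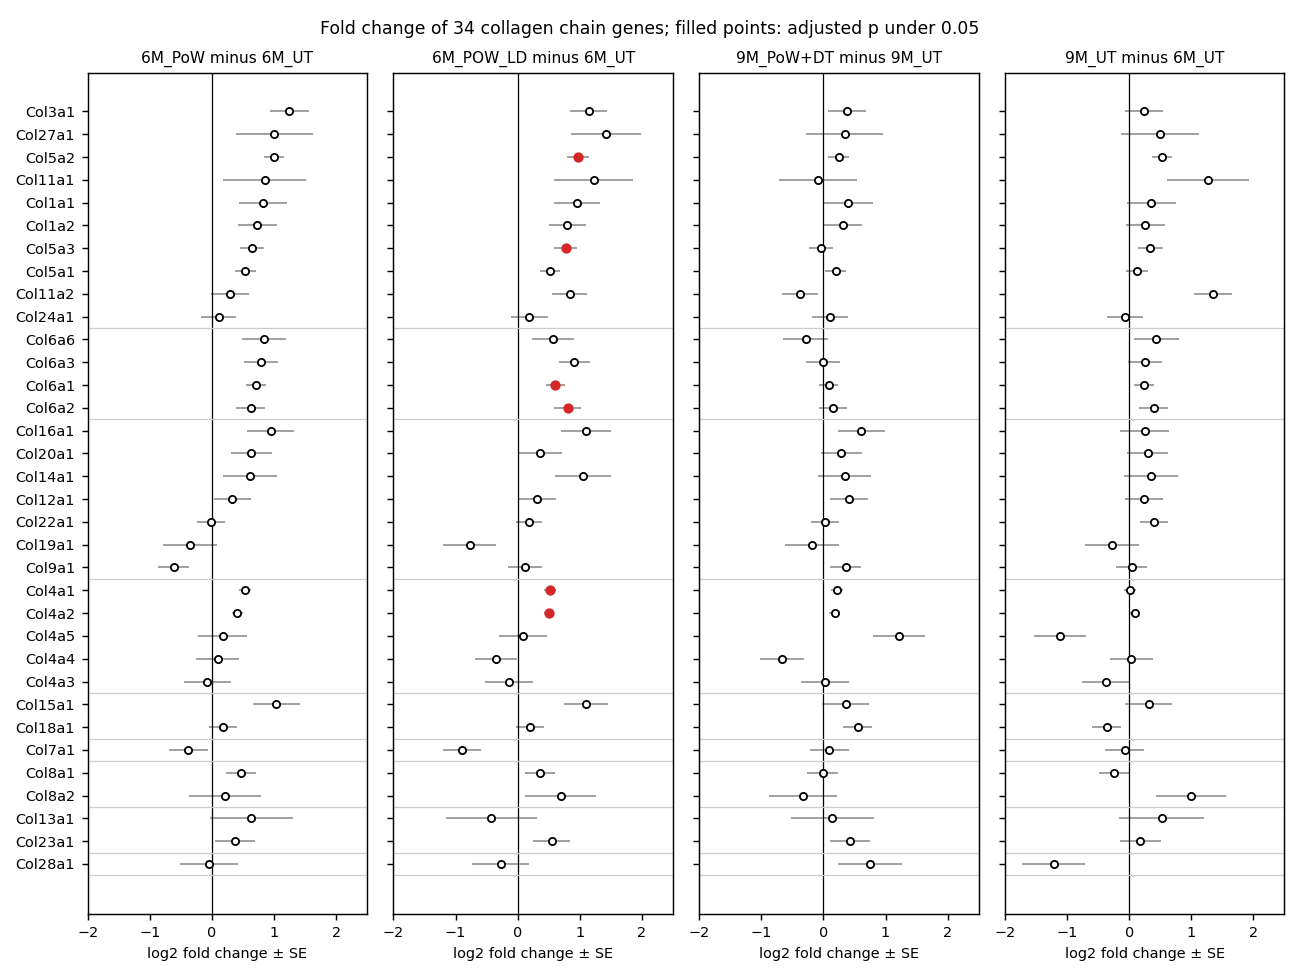
Log2 fold change with its standard error for each tested collagen gene in 4 comparisons, 1 per panel, with classes set apart by grey lines and filled points for an adjusted p under 0.05. All 10 fibrillar and all 4 type VI genes are above 0 in the training and the LD comparison, and the detraining values lie closer to 0.

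The LD libraries were also set against the other trained libraries. No collagen gene was called by edgeR, DESeq2 or limma-voom, while edgeR called 2.40% of all genes. At an unadjusted p under 0.05 there was 1 collagen gene, against 14.3% of all genes, and the collagen median was 0.04. That gene was Col9a1, higher in LD by 0.74 ± 0.28 on the log2 scale (adjusted p 0.204 in edgeR's test), and Col11a2 came next at 0.55 ± 0.28. Col7a1 stood at -0.52 ± 0.31. A p that misses the threshold does not show that the trained and LD libraries were alike.

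At 9 months, detrained and untrained mice were compared, which asks what was left 12 weeks after training. The collagen median was 0.19 on the log2 scale, with 25 of 34 genes above 0, against 0.00 over all genes. No collagen gene was called by edgeR, DESeq2 or limma-voom, and edgeR called 0.0201% of all genes. At an unadjusted p under 0.05 there were 3 collagen genes against 6.52% of all genes, all of them higher, where 3.22% of all genes passed. For 6 of the 34 collagen genes, or 17.6%, every detrained library was above every untrained one, against 6.17% of all genes. The 3 were Col4a5 at 1.21 ± 0.42, Col18a1 at 0.55 ± 0.23 and Col4a1 at 0.23 ± 0.10, with adjusted p of 0.646, 0.736 and 0.736 in edgeR's test. Fibrillar genes had a median of 0.22, with none under this p, and type VI genes one of 0.04. Col5a2 stood at 0.24 ± 0.16. Since the treatment field exchanges the 9-month groups, the sign of each of these values turns if it, and not the title, is right.

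How far the detraining fold change departed from the training one was tested directly. The collagen median of this difference was -0.38, and 24 of 34 genes were below 0. It also rests on the 6M_UT libraries, of which replicate 1 was often the lowest. All 10 fibrillar and all 4 type VI genes were below 0, with medians of -0.66 and -0.71. No collagen gene was called by edgeR, DESeq2 or limma-voom, and edgeR called 0.0268% of all genes. At an unadjusted p under 0.05 there were 6, against 9.48% of all genes, and 5 of them were below 0, against 4.69% of all genes. The smallest p belonged to Col5a2 at -0.76 ± 0.23 and Col6a1 at -0.63 ± 0.22, with adjusted p of 0.301 and 0.381 in edgeR's test. Col9a1 stood at 0.98 ± 0.36. With the 9-month groups exchanged, the collagen median was -0.75. With the LD libraries counted as untrained it was -0.02.

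Untrained mice of 9 months were compared with those of 6 months. The collagen median was 0.24, with 26 of 34 above 0, against -0.01 over all genes, but it was 0.06 without 6M_UT replicate 1. No collagen gene was called by edgeR, which called 0.0134% of all genes, or by limma-voom. DESeq2 called Col11a2 higher (adjusted p 0.0117) and 0.228% of all genes. At an unadjusted p under 0.05 in edgeR's test there were 4 collagen genes, against 6.72% of all genes. They were 2 higher (3.21% of all genes) and 2 lower (3.51%). Every 9M_UT library was above every 6M_UT library for 3 collagen genes (5.44% of all genes) and below for 2 (6.40% of all genes). Col11a2 stood at 1.35 ± 0.30 with an adjusted p of 0.233 in edgeR's test, and Col5a2 at 0.53 ± 0.17 (adjusted p 0.519). Col4a5 stood at -1.12 ± 0.42 and Col28a1, a rare collagen known from nerve, at -1.21 ± 0.50. Col28a1 was at 2.11, 0.743 and 0.698 CPM in 6M_UT and 0.327, 0.605 and 0.591 in 9M_UT, so its value leans on 6M_UT replicate 1.

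Detrained mice were compared with trained mice, a contrast that spans both 12 weeks of detraining and a difference in age and identifier series. The collagen median was -0.10, with 23 of 34 genes below 0. No collagen gene was called by edgeR, which called 0.295% of all genes, or by limma-voom, and DESeq2 called Col9a1 higher, as it did 1.35% of all genes. At an unadjusted p under 0.05 in edgeR's test there were 5, against 12.7% of all genes. For 1 collagen gene every detrained library was above every trained one (9.53% of all genes), and for 5 below (9.65%). Col9a1 stood at 1.02 ± 0.25 (adjusted p 0.0949 in edgeR's test), Col4a1 at -0.30 ± 0.10 (0.196), Col8a1, a short-chain collagen of vessel walls, at -0.72 ± 0.24 and Col6a1 at -0.39 ± 0.15. With the 9-month groups exchanged, Col4a1 was called lower at -0.53 (adjusted p 0.0360).

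Genes that make and process collagen were read from the same tests. Of 32 such genes 30 were tested, and in LD against 6M_UT 2 were called, both higher (2.15% of all genes), with a median of 0.12 over the list. Pcolce, whose product enhances the trimming of fibrillar procollagen, stood at 8.38, 13.5 and 10.6 CPM in 6M_UT, 18.97, 19.9 and 14.7 in 6M_PoW and 18.8, 20.8 and 19.7 in LD. Its log2 fold change in LD was 0.87 ± 0.18 (adjusted p 0.00943 in edgeR's test), a call that held in every alternative. Loxl2, which cross-links collagen, stood at 6.28, 8.92 and 10.04 CPM in 6M_UT, 14.7, 14.05 and 12.9 in 6M_PoW and 12.2, 13.1 and 11.5 in LD. Its LD value was 0.55 ± 0.15 (adjusted p 0.0447 in edgeR's test), a call lost without any one of 13 libraries, all but 6M_UT replicate 3 and 9M_PoW+DT replicate 3. For training the list had 6 of 30 genes at an unadjusted p under 0.05 (9.75% of all genes), all higher, and none called by edgeR or limma-voom. DESeq2 called Loxl2, and edgeR gave 0.72 ± 0.16 for Loxl2 and 0.72 ± 0.19 for Pcolce. With age, the smallest p were those of Plod2 and Crtap, enzymes and partners of collagen hydroxylation, at 0.90 ± 0.35 and 0.57 ± 0.25 (adjusted p 0.646 and 0.724).

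Small leucine-rich proteoglycans bind collagen fibrils and set their spacing. All 9 that were listed were tested, and 3 were called higher in LD (2.15% of all genes), with a list median of 0.53. Lum stood at 7.52, 14.8 and 10.1 CPM in 6M_UT, 20.7, 24.1 and 14.97 in 6M_PoW and 20.1, 27.8 and 16.2 in LD, and its LD value was 0.98 ± 0.26 (adjusted p 0.0447 in edgeR's test). Dcn stood at 239.9, 199 and 216 CPM in 6M_UT, 244, 291 and 268 in 6M_PoW and 259.7, 316 and 257 in LD, and its LD value was 0.34 ± 0.09 (adjusted p 0.0427). Prelp stood at 0.54 ± 0.15 (adjusted p 0.0441), though its LD and untrained libraries overlapped. These calls were close to the threshold. Leaving out 1 library ended the Lum call for 10 of 15 libraries (all but 6M_UT 2, 6M_PoW 2 and 3, 9M_PoW+DT 3 and LD 6). It ended the Dcn call for 8 (6M_UT 2 and 3, 6M_PoW 3, 9M_UT 2 and 3, 9M_PoW+DT 2, LD 4 and 5) and the Prelp call for 9 (6M_UT 1 and 2, 6M_PoW 2 and 3, 9M_UT 3, 9M_PoW+DT 1 and 2, LD 5 and 6). With only the groups compared in the fit, the calls of Lum, Dcn, Prelp and Loxl2 were lost (adjusted p 0.105 to 0.143), and that of Lum was also lost without a filter on low counts (0.0737). For training, 5 of 9 were at an unadjusted p under 0.05 (9.75% of all genes), all higher, none called by edgeR or limma-voom and 1 (Lum) by DESeq2, with 0.88 ± 0.23 for Lum and 0.29 ± 0.09 for Dcn. With age, none was called by the 3 tools and 2 were at an unadjusted p under 0.05 (6.72% of all genes), Dcn at 0.27 ± 0.09 and Prelp at 0.43 ± 0.14.

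Cells sense collagen through integrins, discoidin domain receptors and uptake receptors. Of 12 such receptors 11 were tested, with a median log2 fold change of 0.56 for training and 0.59 for LD. EdgeR and limma-voom called none in either comparison, and 6 were at an unadjusted p under 0.05 in each, all higher, where 9.75% of all genes passed for training and 20.0% for LD. DESeq2 called Antxr2 for training and Antxr1, Antxr2 and Mrc2 for LD. For training the smallest p were those of Antxr2, a receptor for type VI collagen, at 0.70 ± 0.17 (adjusted p 0.199 in edgeR's test) and Itga1, the integrin chain that binds type IV collagen, at 0.56 ± 0.15 (0.219). With age they were Itga11 at 0.77 ± 0.29 and Antxr2 at 0.46 ± 0.18. Itga1 was called lower in detrained than in trained mice, at -0.86 ± 0.15 with an adjusted p of 0.0304 in edgeR's test. Its levels were 18.9, 19.9 and 23.05 CPM in 6M_UT, 30.5, 33.5 and 27.2 in 6M_PoW, 25.1, 22.2 and 17.8 in 9M_UT and 20.5, 15.2 and 14.3 in 9M_PoW+DT. The call was lost without 6M_PoW replicate 1 or 2 or 9M_PoW+DT replicate 2 or 3 (adjusted p 0.0829 to 0.146) and with the 9-month groups exchanged.

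TGF-beta is the main signal known to raise collagen transcription. All 13 of its ligands, receptors and targets that were listed were tested, with a median of -0.10 for training and 0.03 for LD. EdgeR called none in either comparison, and 3 and 7 of 13 were at an unadjusted p under 0.05, where 9.75% and 20.0% of all genes passed. Limma-voom called none, and DESeq2 called Smad7 lower in LD. For training the smallest p were those of Smad7, an inhibitor of the pathway, at -0.51 ± 0.16 and Postn, a matrix protein and target, at 0.83 ± 0.30 (adjusted p 0.297 and 0.372 in edgeR's test). With age they were Smad3 at 0.31 ± 0.19 and Smad2 at -0.22 ± 0.14.

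**Figure D5:**
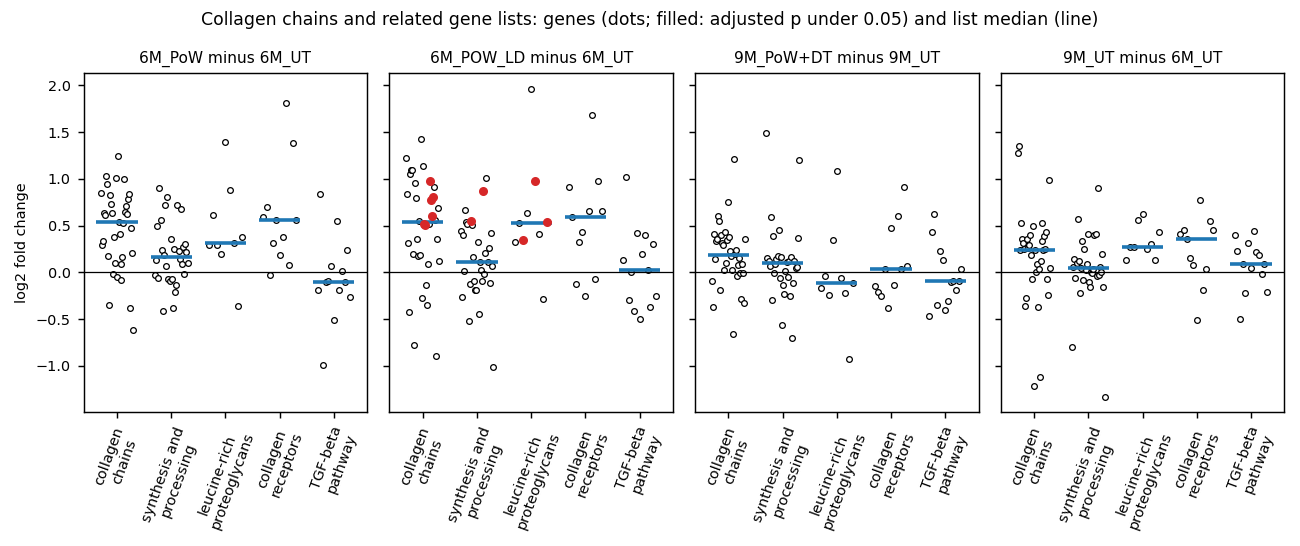
Log2 fold changes of the collagen genes, and the other lists of the collagen pathway in 4 comparisons, with each dot 1 gene, filled where its adjusted p is under 0.05, and the line the median of its list. The collagen median is 0.54 for training and 0.53 for LD, and the TGF-beta list has medians of -0.10 and 0.03.

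Markers of other cell types were summed in the same libraries, and each sum follows its most abundant genes most. The summed level of 8 fibroblast and fibro-adipogenic progenitor markers was 965 to 1125 CPM in the 6M_PoW libraries and 1003 to 1134 CPM in LD, against 823 to 976 CPM in the 6M_UT libraries. Trained and untrained libraries overlapped for this sum, and LD libraries were all above 6M_UT. Gsn (496 to 730 CPM over the 15 libraries) and Dcn (199 to 316 CPM) made up most of it, and Gsn was 639 CPM in 6M_UT replicate 1. In training all 8 markers were above 0, and for 5 every trained library stood above every untrained one, against 7.96% of all genes. In LD 4 of the 8 were called higher by edgeR, against 2.15% of all genes, and in training 5 of 8 were at an unadjusted p under 0.05, against 9.75%, with none called. Of these 8, Dcn and Lum are also in the proteoglycan list. Endothelial markers summed to 227 to 251 CPM in the 6M_PoW libraries and 193 to 247 CPM in LD, against 163 to 205 CPM in the 6M_UT libraries, so that LD and untrained libraries overlapped. Pericyte and smooth muscle markers summed to 639 to 676 CPM in the 6M_PoW libraries and 631 to 645 CPM in LD, against 561 to 593 CPM in the 6M_UT libraries. Rgs5 and Abcc9 made up most of this sum. Rgs5 stood at 308 to 346 CPM in 6M_PoW and 309 to 316 in LD, against 260 to 268 in 6M_UT. Abcc9 overlapped, at 266 to 272 CPM in 6M_PoW, 256 to 259 in LD and 239 to 284 in 6M_UT. For 3 of the 5 markers every trained library stood above every untrained one, against 7.96% of all genes. Macrophage markers summed to 47.3 to 65.4 CPM in the 6M_PoW libraries and 50.8 to 62.6 CPM in LD, against 33.9 to 35.6 CPM in the 6M_UT libraries. The part of these cell types in the collagen differences was not tested.

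Tendon cell markers summed to 70.4 to 97.6 CPM in the 6M_PoW libraries and 96.4 to 119 CPM in LD, against 65.9 to 84.1 CPM in the 6M_UT libraries. At 9 months their sum was 77.7 to 156 CPM in the detrained libraries and 78.002 to 122 CPM in those never trained. Schwann cell markers summed to 23.4 to 38.2 CPM in the 6M_PoW libraries and 28.7 to 33.7 CPM in 6M_UT, while LD replicates 4, 5 and 6 stood at 39.4, 107 and 43.3 CPM. The 3 red blood cell markers summed to 2045 CPM in LD replicate 6 and to 214 to 671 CPM in the other 14 libraries. LD replicate 5 is thus high in Schwann cell markers and LD replicate 6 in red blood cell markers. Leaving out either took the LD collagen calls from 6 to 3, and calls were also lost without LD replicate 4 or 6M_UT replicate 1. Whether these markers bear on the calls was not tested. For adipocyte markers the sum was 107 to 179 CPM in the detrained libraries and 116 to 130 CPM in 9M_UT, most of it Fabp4. The median log2 fold change of these 5 genes, detrained against untrained, was 1.06, with 4 above 0 and 1 below. At an unadjusted p under 0.05 in edgeR's test there were 3 of 5, all higher, against 3.22% of all genes. None was called by edgeR, which called 0.0201% of all genes. The sum of the chondrocyte and bone markers that could be matched, Sox9 and Comp, was 2.88 to 11.2 CPM over the 15 libraries. Their part in the collagen differences was not tested either.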

How the data were processed

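RNA of plantaris muscle was sequenced for 15 samples, 1 library each. The file that the authors deposited holds expected counts by gene, not normalized, of which 26.9% to 31.9% in a library were not exactly whole. Per the submitters' processing notes, STAR 2.7.3a, DESeq2, Partek and mm10 were used, with no role given for any of them. How reads were counted, and whether by strand, is not stated in these sources. Expected counts were rounded to whole numbers and filtered with filterByExpr, which left 14919 genes in the 12 libraries without LD and 15181 in all 15. The 5 comparisons without LD came from a fit of 12 libraries and the 2 with LD from a fit of 15, with 1 mean per group, TMM scaling and edgeR's quasi-likelihood test (edgeR 4.0.16, R 4.3.3). Each SE is the size of the log2 fold change divided by the square root of its quasi-likelihood F statistic, not a separate estimate. P-values were adjusted by Benjamini-Hochberg over all genes tested, and a gene was called at an adjusted p under 0.05. Gene lists were described by counts and medians, without tests of the lists. DESeq2 1.42.0, limma-voom (limma 3.58.1), other filters, scalings, readings of the labels and leaving out each library were alternatives.

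Collagen members, classes, pathway lists and markers were chosen with earlier results of these data known. Levels in every library are given for 17 chosen collagens, every called collagen and the 2 with the smallest p in each comparison. Of the other lists, called genes are given (at most 4 per list and comparison), or the 2 with the smallest p for training and age. Col7a1 and Col6a6 and the other collagens given with a fold change were named after their values were seen. Gene starts and ends matched GENCODE M21 for 43 of 43 members, and exon lengths came from it. Matching replicate numbers were checked for pairing: in no comparison did every same-numbered pair correlate above 0.1.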

Additional observations from a re-analysis of the deposited data

How the results depend on the processing

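For 72 single-gene results, 1504 values were recomputed under alternatives, and 1389 of these kept their direction and their side of the threshold. Most of the 72 were not called as reported, so most of these values only stayed uncalled, which says little about how firm a call is. Of the rest, 69 lost a call, all from the few called results, 42 gained one and 4 reversed direction. In the training comparison, collagen calls numbered 5 with DESeq2, 2 without a filter (Col5a2 and Col4a1) and 4 with the LD libraries added to the trained group (Col5a2, Col4a1, Col4a2 and Col6a1), against 0, and 0 to 1 with a library left out. In LD against untrained they numbered 12 with DESeq2, against 6, and 3 to 8 with a library left out. DESeq2 gave 1 for age (Col11a2) and 1 for detrained against trained (Col9a1), where exchanging the 9-month groups also gave 1 (Col4a1), against 0. Direction reversed for Col7a1 in training (0.0023) and Col5a2 with age (-0.040) when LD libraries counted as untrained, and for Col4a5 (0.095) and Smad2 (0.011) with age when the 9-month groups were exchanged. The cause was not tested. With LD libraries as untrained the training median of collagens was 0.16, and with the 9-month groups exchanged the age median was 0.41.

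Same-numbered libraries correlated at -0.047 to 0.091 in training and -0.0804 to 0.129 in detraining. The range was -0.185 to -0.0332 with age and 0.0315 to 0.131 in detrained against trained. Of 12 libraries, 6 were closest to one of their own number. These values do not settle whether replicate numbers pair samples, and the main fits used no pairing. With the replicate block the collagen calls stayed 0 in all 5 comparisons without LD, and all-gene calls were 1 for training (0 without the block) and 19 for detrained against trained (44). Over all genes and settings, calls ran from 0 to 117 for training (0 as reported), 288 to 1163 for LD against untrained (757), 157 to 675 for LD against trained (365), 1 to 30 for detraining (3), 0 to 98 for the difference (4), 0 to 58 for age (2) and 0 to 345 for detrained against trained (44). Depth limits the 15 collagen genes that were untested or below the minimum of 0.454 CPM in some library.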

Other observations

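The whole fibrillar class can also be read library by library, as the median over its 10 tested genes of the log2 difference from the mean of 6M_UT. This median was 0.91, 0.84 and 0.58 in 6M_PoW and 0.77, 1.14 and 0.82 in LD, against -0.11, 0.21 and 0.06 in the untrained libraries themselves. In 9M_UT it was 0.71, 0.40 and 0.18, and in 9M_PoW+DT 0.89, 0.70 and 0.29. The 9-month groups overlapped. For type VI the 4 tested genes gave 0.80, 1.02 and 0.46 in 6M_PoW, 0.75, 0.87 and 0.73 in LD, 0.40, 0.22 and 0.37 in 9M_UT and 0.58, 0.46 and 0.013 in 9M_PoW+DT. These are descriptions of the same values and carry no test.

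Within type VI, the level of Col6a1 per kilobase was 1.74 to 2.76 times that of Col6a2 over the 15 libraries, and that of Col6a3 was 0.175 to 0.310 times that of Col6a1. These ratios depend on the exon totals used, 4.38 kilobases for Col6a1, 8.33 for Col6a2 and 12.0 for Col6a3. In CPM the medians were 30.0, 28.1 and 19.3, so Col6a1 and Col6a2 were near equal before that scaling. The lowest ratio of Col6a3 to Col6a1 was in 6M_UT replicate 1 and the highest in LD replicate 4. Col4a3 and Col4a4, whose start sites lie close together, had a ratio of 0.456 to 1.54, a wider range than that of the abundant pair Col4a1 and Col4a2, at levels of at most 4.51 CPM.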
